A study of Mus musculus with 2 samples.

Results

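The OAS and IFIT families are antiviral proteins that cells make in response to type I interferon. The 9 genes described here were taken by name from a table of 38293 genes: 6 of the OAS family (Oas1a, Oas1g, Oas2, Oas3, Oasl1 and Oasl2) and 3 of the IFIT family (Ifit1, Ifit2 and Ifit3). They were measured by sequencing messenger RNA of lung resident macrophages sorted from mice infected with the roundworm Nippostrongylus brasiliensis. One group was Axl-/-Mertk-/-, mice without the receptor kinases Axl and Mertk, and the other was WT; both were C57BL/6, 8 weeks old, and had each received 625 larvae under the skin 7 days before the lungs were taken. The cells were sorted as positive for CD45 and Siglec-F, high for CD11c and low for CD11b, and there was 1 library per genotype. Whether a library pooled several mice is not stated in the labels, and the deleted parts of Axl and Mertk are not given there either.

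OAS enzymes bind double-stranded RNA and then join ATP into short oligoadenylates, a messenger that sets off the breakdown of viral and cellular RNA. The OAS-like proteins carry a related fold; mouse Oasl1 has lost the enzyme activity and is known for holding back translation of Irf7, the factor that amplifies interferon production. IFIT proteins bind foreign RNA or the translation machinery and so keep viral messages from being translated. In resting macrophages both families are expressed at a low level, and interferon signalling, in which the factors Stat2 and Irf9 take part, raises them. In mouse dendritic cells, Axl and Mertk are known to act together with the interferon receptor and to dampen innate responses.

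With 1 library per genotype there is no spread between animals and no test; values in brackets after a ratio are exact 95% intervals from the read counts and cover counting error only. Values are normalised reads, the deposited counts divided by a size factor per library. Depth was 15519680 reads in Axl-/-Mertk-/- and 15282882 in WT, and 1 read was worth 1.18 and 1.21 normalised reads in these libraries. Axl had 3851 normalised reads in Axl-/-Mertk-/- and 24789.8 in WT, and Mertk had 2842 and 6484, so both targeted genes were lower in the library labelled as lacking them; reads from parts that were not deleted would still be counted. The alveolar macrophage markers Siglecf (2347 in Axl-/-Mertk-/-, 2566 in WT), Itgax (39176 and 40087) and Marco (8630.1 and 10090.4) were abundant in both libraries.

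All 9 genes had fewer normalised reads in Axl-/-Mertk-/- than in WT, by unequal amounts, as did 51.2% of all genes with a mean of at least 20 normalised reads. Oasl1 and the 3 IFIT genes stood at 35.7% to 49.7% of WT and Oas3 at 53.7%, whereas Oas1g, Oas1a and Oasl2 stood at 66.7% to 78.2% and Oas2 at 95.1%. Together the 9 genes took 1473 reads in Axl-/-Mertk-/- and 2336 in WT. Their pooled ratio was 0.617 (0.577 to 0.659). It was 0.466 (0.402 to 0.539) for the IFIT genes, 0.560 (0.493 to 0.635) for the OAS-like pair and 0.733 (0.668 to 0.803) for Oas1a, Oas1g, Oas2 and Oas3. Unlike genes are joined in the OAS-like pair (Oasl1 0.357, Oasl2 0.782) and in the other OAS set (Oas3 0.537, Oas2 0.951). Their pooled intervals describe summed reads and not each gene. Fewer cells making a transcript and less of it per cell cannot be told apart in such bulk samples.

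**Figure D1:**
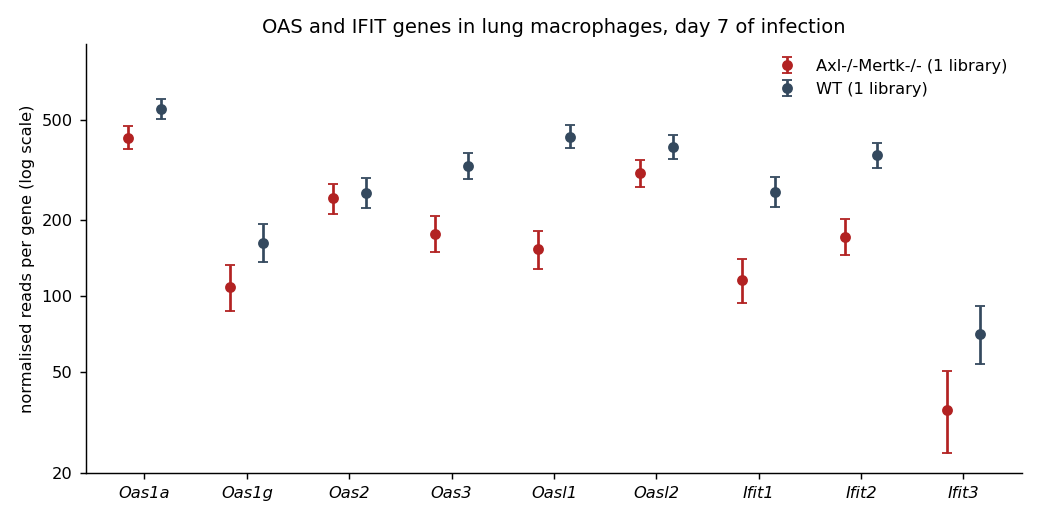
Normalised reads of each gene (log scale) in the Axl-/-Mertk-/- library (red, left of each pair) and the WT library (dark blue, right of each pair); bars are exact 95% Poisson intervals and cover counting error only. The red point lies below the blue one for all 9 genes, with the widest gap for Oasl1 (153 and 429.6) and the narrowest for Oas2 (244 and 257).

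Among the OAS enzymes, Oas1a had the most reads. Oas1a (ENSMUSG00000052776, GRCm38 chr5:120896256-120907521, minus strand) had 425 normalised reads in Axl-/-Mertk-/- and 554 in WT, a ratio of 0.767 (0.666 to 0.883). Its neighbour Oas1g (ENSMUSG00000066861, chr5:120876142-120887613, minus strand) had 109 in Axl-/-Mertk-/- and 163 in WT, a ratio of 0.667 (0.506 to 0.875). The transcripts of these genes are 97.6% identical over 1861 bases, so the split of reads between them is uncertain; on a log2 scale with 10 added to each value, the sum of both had a ratio of -0.42 and Oas1a alone one of -0.37.

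Oas2 and Oas3 encode larger proteins in which the catalytic fold is repeated. Oas2 (ENSMUSG00000032690, chr5:120730333-120749853, minus strand) had 244 normalised reads in Axl-/-Mertk-/- and 257 in WT, and its ratio of 0.951 has an interval that includes 1 (0.781 to 1.16). Oas3 (ENSMUSG00000032661, chr5:120753098-120777661, minus strand) lies next to it and had 177 in Axl-/-Mertk-/- and 329 in WT, a ratio of 0.537 (0.437 to 0.658). The ratio of Oas2 was 1.77 times that of Oas3 (1.33 to 2.35), a difference larger than the counting error between these 2 libraries. Oas3 shares stretches of up to 350 bases, and Oasl2 of up to 111 bases, with transcripts of unrelated genes at 90% identity or more, where reads could be misassigned.

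The OAS-like genes also lie side by side, on another part of chromosome 5. Oasl1 (ENSMUSG00000041827, chr5:114923240-114937915, plus strand) had 153 normalised reads in Axl-/-Mertk-/- and 429.6 in WT, a ratio of 0.357 (0.290 to 0.438). Oasl2 (ENSMUSG00000029561, chr5:114896936-114912234, plus strand), whose protein in the mouse keeps the enzyme activity, had 307 in Axl-/-Mertk-/- and 392 in WT, a ratio of 0.782 (0.662 to 0.924). Oasl1 thus had the lowest ratio of the 9 genes, and its ratio was 0.457 times that of its neighbour (0.349 to 0.596). An antisense gene, Gm13822, shares 38 exon bases with Oasl1, but had 0 reads in Axl-/-Mertk-/- and 1 in WT.

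The IFIT genes form a cluster on chromosome 19. Ifit1 (ENSMUSG00000034459, chr19:34640871-34650009, plus strand), whose protein binds RNA that lacks the fully methylated cap of host messages, had 116 normalised reads in Axl-/-Mertk-/- and 259 in WT, a ratio of 0.446 (0.347 to 0.569). Ifit2 (ENSMUSG00000045932, chr19:34550694-34576419, plus strand), which restricts several viruses in mice, had 172 in Axl-/-Mertk-/- and 363 in WT, a ratio of 0.474 (0.387 to 0.580). Ifit3 (ENSMUSG00000074896, chr19:34583531-34588731, plus strand), an adaptor of the family, had 35.4 in Axl-/-Mertk-/- and 71.2 in WT, a ratio of 0.497 (0.309 to 0.784). Ifit3 rests on 30 reads in Axl-/-Mertk-/- and 59 in WT, and with Ifit3b it shares a stretch of 1700 transcript bases at 97.8% identity, so its count is uncertain. Added to Ifit3b, it had a log2 ratio of -0.82, against -0.84 alone. The 3 ratios lay close together, and none of the quotients between them had an interval that excluded 1; that of Ifit2 over Ifit3 was 0.954 (0.576 to 1.60), so smaller differences between them were not detectable at this depth.

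**Figure D2:**
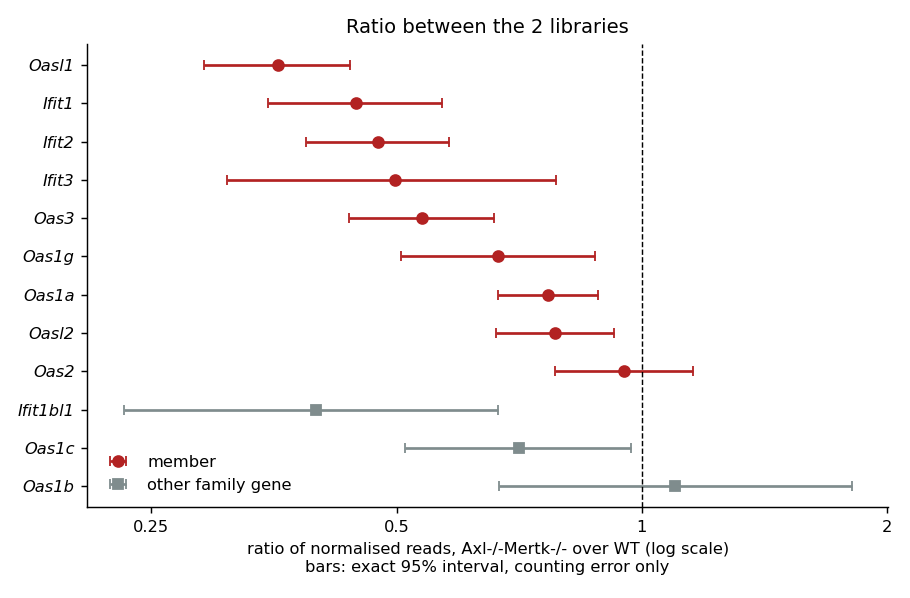
Ratio of normalised reads, Axl-/-Mertk-/- over WT (log scale), for the 9 genes (red circles, lowest ratio at the top) and the 3 other measured genes of the families (grey squares); bars are exact 95% intervals, counting error only, and the dashed line marks 1. The intervals of 8 of the 9 genes lie below 1, and that of Oas2 (0.781 to 1.16) crosses it.

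The ratios of the 9 genes ran from 0.357 to 0.951 without a clear break, and Oas1g could not be told from its neighbours on either side at this depth. Of 36 pairs among the 9 genes, 17 had a quotient of ratios whose exact 95% interval excluded 1, and 11 still did when the intervals were widened for 36 comparisons (Bonferroni). These 11 set Oasl1 against Oas1a, Oas1g, Oas2 and Oasl2, Oas2 against Oas3, and Ifit1 and Ifit2 each against Oas1a, Oas2 and Oasl2. These intervals compare reads of 2 libraries and say nothing of the spread between mice.

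Across the whole table the 9 genes were set beside 11795 genes with a mean of at least 20 normalised reads over both libraries, called measured. All 9 passed this minimum, and they had been chosen with earlier results of these data known. The log2 ratio was taken after adding 10 to each value, which understates the difference of low genes, and a gene was called lower at 1.5-fold on that scale. Of the 9 genes 5 were called lower (Oasl1, Ifit1, Ifit2, Oas3 and Ifit3), against 1.33% of all measured genes. Oas1g, at -0.54, was the nearest of those not called. At 2-fold 3 of the 9 were called lower (Oasl1, Ifit1 and Ifit2), against 0.271% of measured genes. The counting interval lay below 1 for 8 of the 9 genes and for 11.4% of measured genes.

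The median log2 ratio was -0.84 over the 9 genes and -0.0047 over all measured genes. Counted from the lowest ratio of the 11795, Oasl1 held rank 8, Ifit1 rank 21, Ifit2 rank 27, Oas3 rank 52 and Ifit3 rank 58. Oas1g held rank 195, Oas1a rank 495 and Oasl2 rank 607. Oas2, at rank 3843, lay within the middle of the distribution.

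**Figure D3:**
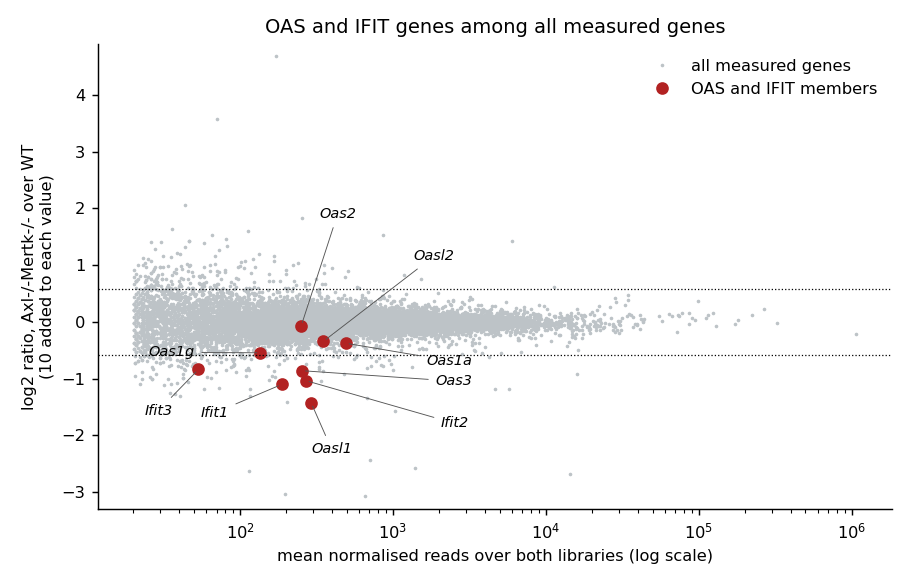
Log2 ratio, Axl-/-Mertk-/- over WT with 10 added to each value, against the mean normalised reads of both libraries (log scale) for 11795 measured genes (grey) and the 9 OAS and IFIT genes (red); dotted lines mark 1.5-fold. Oasl1 (-1.43), Ifit1 (-1.10) and Ifit2 (-1.03) lie lowest of the 9, and Oas2 (-0.07) lies near 0.

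Per kilobase of exon, Oas1a was the most abundant of the 9 in both libraries, at 225 normalised reads per kb in Axl-/-Mertk-/- and 294 in WT. Oasl1 came next, at 58.8 per kb in Axl-/-Mertk-/- (counting interval 49.2 to 69.9) and 164.7 in WT (148.1 to 182.8). In Axl-/-Mertk-/- its interval overlapped those of Oas2 (54.9 per kb), Oasl2 (48.2), Oas1g (46.4), Ifit2 (43.9) and Ifit1 (43.6), so the order of these 6 was not resolved at this depth. In WT Oasl1 lay above the rest with no overlap, followed by Ifit1 (97.7 per kb) and Ifit2 (92.5), whose intervals overlapped. Oas1g (69.6 per kb), Oasl2 (61.5), Oas2 (57.8), Oas3 (46.6) and Ifit3 (40.8) came after them in WT, with neighbours in this order overlapping. Oas3 and Ifit3 were the lowest in Axl-/-Mertk-/- too, at 25.0 and 20.3 per kb, with intervals that overlapped. These levels use all annotated exons of a gene, and a gene with long exons that these cells do not use is understated.

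The families hold 9 further genes in the table, of which 3 were measured. Ifit1bl1, in the IFIT cluster, had 26.0 normalised reads in Axl-/-Mertk-/- and 65.2 in WT, a ratio of 0.398 (0.231 to 0.665), and was called lower. Oas1c had 82.6 in Axl-/-Mertk-/- and 117 in WT, a ratio of 0.706 (0.511 to 0.970). Oas1b, the flavivirus resistance gene, which C57BL/6 carries in a truncated form, had 43.7 in Axl-/-Mertk-/- and 39.8 in WT, and the interval of its ratio of 1.10 includes 1 (0.667 to 1.81). Ifit3b had 7 reads in Axl-/-Mertk-/- and 11 in WT, and Ifit1bl2 had 4 and 6. Oas1h had 0 reads in Axl-/-Mertk-/- and 1 in WT, and Oas1d, Oas1e and Oas1f had 0 reads in both, which allows up to 3.54 normalised reads in Axl-/-Mertk-/- and 3.62 in WT.

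Most genes next to the clusters were not called. Within 250 kb of a member lay 24 measured genes of neither family, with log2 ratios from -0.64 to 0.49. Of these 1 was called lower and 0 higher, against 1.33% and 1.74% of all measured genes. The 1 called was Rph3a, a gene of synaptic vesicle release (41.3 in Axl-/-Mertk-/-, 70.0 in WT). On chromosome 5 the 19 neighbours had a median of 0.044. On chromosome 19 all 5 had a log2 ratio below 0, where 51.2% of all measured genes did, with a median of -0.26. Among them was Ch25h, which encodes the interferon-induced cholesterol 25-hydroxylase (1909 in Axl-/-Mertk-/-, 2365 in WT, ratio 0.807, 0.755 to 0.862). Neither cluster lies on chromosome 7 or 2, which carry Axl and Mertk.

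**Figure D4:**
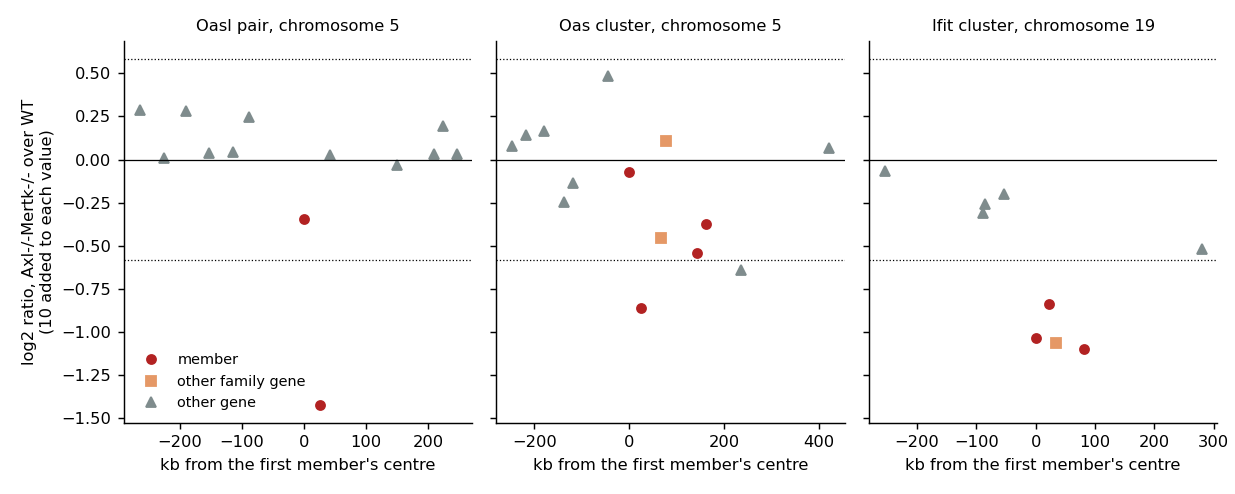
Log2 ratio, Axl-/-Mertk-/- over WT with 10 added to each value, against distance in kb from the centre of the first member, for measured genes within 250 kb of the Oasl pair, the Oas cluster and the Ifit cluster (red circles, the 9 genes; orange squares, other family genes; grey triangles, other genes; dotted lines, 1.5-fold). The 3 IFIT genes and Ifit1bl1 (-1.06) lie together below their neighbours, while Oasl1 (-1.43) and Oasl2 (-0.34), side by side, lie far apart in ratio.

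The promoters of the 9 genes were searched for the interferon-stimulated response element, the site that a complex with Stat2 and Irf9 binds. RefSeq promoters on GRCm38.p6, each from 250 bases before to 50 after the annotated start, were found for 8 of the 9 genes; Oas2 had no entry. The motif GAAANNGAAA on either strand was present in 5 of the 8 (Oas1a, Oas1g, Oas3, Ifit1 and Ifit3) and in 3.99% of 27025 genes with such a promoter. It was also in 15 of 38 promoters of other type I interferon genes and in 10 of 16 of interferon gamma genes; the interferon gamma genes mostly lay above WT. The gamma-activated site, TTCNNNGAA, searched on both strands, was present in 2 of the 8 (Oas1a and Ifit2) and in 9.55% of genes. The promoters of Ifit1, Ifit3 and Oas3 are shown because they hold the motif in genes called lower, and that of Oasl1 because its ratio was the lowest and its promoter holds none; capitals mark GAAANNGAAA or its reverse complement, and each line runs 5′ to 3′ on the gene's strand.
Ifit1, chr19:34640639-34640938, plus strand: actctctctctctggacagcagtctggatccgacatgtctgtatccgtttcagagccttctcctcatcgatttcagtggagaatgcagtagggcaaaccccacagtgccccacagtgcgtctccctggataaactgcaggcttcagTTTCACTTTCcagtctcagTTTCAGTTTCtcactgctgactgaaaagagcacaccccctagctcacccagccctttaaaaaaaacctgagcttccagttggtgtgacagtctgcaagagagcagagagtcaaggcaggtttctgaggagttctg
Ifit3, chr19:34583279-34583578, plus strand: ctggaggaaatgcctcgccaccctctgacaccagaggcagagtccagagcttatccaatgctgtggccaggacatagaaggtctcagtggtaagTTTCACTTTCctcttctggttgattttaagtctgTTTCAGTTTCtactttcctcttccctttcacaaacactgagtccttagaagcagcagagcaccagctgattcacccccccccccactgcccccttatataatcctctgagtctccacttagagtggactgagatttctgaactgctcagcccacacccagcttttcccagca
Oas3, chr5:120777610-120777909, minus strand: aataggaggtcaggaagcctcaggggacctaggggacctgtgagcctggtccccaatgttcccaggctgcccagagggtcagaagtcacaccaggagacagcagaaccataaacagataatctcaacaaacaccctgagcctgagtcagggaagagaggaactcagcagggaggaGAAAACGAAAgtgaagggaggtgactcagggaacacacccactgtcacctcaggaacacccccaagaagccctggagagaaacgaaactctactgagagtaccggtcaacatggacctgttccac
Oasl1, chr5:114922990-114923289, plus strand: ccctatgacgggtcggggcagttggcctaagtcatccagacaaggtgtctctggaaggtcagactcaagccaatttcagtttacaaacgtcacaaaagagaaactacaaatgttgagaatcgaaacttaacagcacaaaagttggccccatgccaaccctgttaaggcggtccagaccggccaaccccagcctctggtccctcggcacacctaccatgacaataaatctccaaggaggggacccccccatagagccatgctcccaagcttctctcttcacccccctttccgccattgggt

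In Ifit1 a first match lies 104 to 95 bases before the start and another 85 to 76 bases before it. Ifit3 has the same pair of matches, TTTCACTTTC and TTTCAGTTTC, 156 to 147 and 122 to 113 bases before its start. Oas3 has a single match, GAAAACGAAA, 75 to 66 bases before its start. The window of Oasl1 holds no match, although the shorter core AANNGAAA, which 26.7% of genes hold, is present there.

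Oas1a and Oas1g share the stretch with the match almost base for base, as the 60 bases around it show, with 2 overlapping matches in capitals and 1 base that differs outside them.
Oas1a, chr5:120907508-120907567, minus strand: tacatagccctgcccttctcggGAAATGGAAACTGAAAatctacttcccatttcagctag
Oas1g, chr5:120887594-120887653, minus strand: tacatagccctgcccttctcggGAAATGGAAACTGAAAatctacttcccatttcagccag

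A match in the promoter did not sort the genes by their ratio. With a match were Ifit1 (log2 ratio -1.10), Oas3 (-0.86), Ifit3 (-0.84), Oas1g (-0.54) and Oas1a (-0.37), and with none were Oasl1 (-1.43), Ifit2 (-1.03) and Oasl2 (-0.34). The windows searched for Ifit2 lie at the 5′ end of its annotated span of 25.7 kb, so a site further inside would be missed. Among the other genes of the families the motif was in 4 of 6 promoters, and Ifit1bl2, whose start faces that of Ifit1, shares the pair of matches printed for Ifit1. Of 347 other measured genes with the motif 6 (1.73%) were called lower: Cxcl10, Isg15, Rsad2, Ifit1bl1, Bub1b and Rbms3. The share was 1.17% among 8538 measured genes with a promoter that lacks the motif, and 1.33% among all measured genes. A match describes letters only, and binding was not measured here.

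Further along, genes linked to the oligoadenylate pathway were within 1.5-fold of WT. Of the 4 genes 0 were called in either direction, and their median log2 ratio was 0.017. Pde12, which degrades oligoadenylates, had 579.6 normalised reads in Axl-/-Mertk-/- and 562 in WT, a ratio of 1.03 (0.906 to 1.17). Abce1, which recycles ribosomes, had 1719 in Axl-/-Mertk-/- and 1988 in WT, a ratio of 0.865 (0.805 to 0.928). Akap7, which encodes another oligoadenylate phosphodiesterase, had a ratio of 1.19 (1.05 to 1.35).

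Upstream of the OAS and IFIT genes, interferon transcripts were scarce. Ifnb1, which encodes interferon beta and was singled out after its values had been seen, had 9 reads in Axl-/-Mertk-/- and 24 in WT, a ratio of 0.367 (0.150 to 0.817). Of 10 Ifna genes 9 had 0 reads in both libraries, and Ifna16 had 0 in Axl-/-Mertk-/- and 1 in WT. Ifng had 4 reads in Axl-/-Mertk-/- and 6 in WT. No interferon gene reached the minimum for a measured gene.

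No sensor of foreign nucleic acid was called. Of 17 genes 0 were called in either direction, with a median log2 ratio of 0.016. The lowest was Dhx58 (301 in Axl-/-Mertk-/-, 392 in WT, ratio 0.767, 0.649 to 0.907), a regulator of the RIG-I-like receptors. Ddx58, which encodes RIG-I, had a ratio of 0.867 (0.776 to 0.968), the DNA sensor gene Mb21d1 one of 0.793 (0.653 to 0.963), and the kinase gene Ikbke one of 1.15 (1.04 to 1.29).

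Genes of interferon signalling had a median log2 ratio of 0.051. Of the 17 genes 1 was called lower and 0 higher, against 1.33% and 1.74% of all measured genes. The 1 called was Usp18, an interferon-induced brake on the receptor, with 146 normalised reads in Axl-/-Mertk-/- and 238 in WT. Irf7, itself induced by interferon, had 343.5 in Axl-/-Mertk-/- and 474 in WT, a ratio of 0.724 (0.620 to 0.845). Stat2 and Irf9, which take part in binding the response element, were within 1.5-fold of WT. Stat2 had a ratio of 0.894 (0.826 to 0.967) and Irf9 one of 1.09 (0.973 to 1.23). Irf1, a factor that interferon gamma induces strongly, had a ratio of 1.21 (1.13 to 1.29), and the receptor gene Ifnar1 one of 1.04 (0.967 to 1.11).

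Other genes induced by type I interferon had a median log2 ratio of -0.13 over 40 measured genes. Of these 32 lay below 0, 5 were called lower and 0 higher, where 51.2% of all measured genes lay below 0 and 1.33% were called lower. Those called were Rsad2, the antiviral enzyme viperin (234 in Axl-/-Mertk-/-, 421 in WT), Isg15, a ubiquitin-like modifier (247 and 409), the chemokine gene Cxcl10 (614 and 1051), the receptor transporter gene Rtp4 (82.6 and 132) and Mx2, an antiviral GTPase (28.3 and 51.9). By level of ratio alone, the 5 genes of mean 100 or more that lay nearest to the median of the OAS and IFIT genes were Ccl4 (-0.84), Speg (-0.84), Nes (-0.84), Rsad2 (-0.82) and Mfap1b (-0.82). With 2 libraries this likeness is no more than an equal ratio.

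Genes known for their response to interferon gamma mostly lay above WT. Of 21 measured genes 19 had a log2 ratio above 0, with a median of 0.30, while 51.2% of all measured genes lay below 0. Of the 21 genes 5 were called higher, where 1.74% of all measured genes were, and 1 was called lower. Those called higher were the GTPase genes Iigp1 (175 in Axl-/-Mertk-/-, 50.7 in WT), Gbp4 (169 and 80.9), Gbp8 (257 and 139) and Tgtp2 (33.1 and 14.5), and the chemokine gene Cxcl9 (615 and 352). In the annotation Gbp4 and Gbp8 overlap on the same strand, and Tgtp2 has a close copy, so the split of their reads is uncertain. The 1 called lower was Nos2 (131 in Axl-/-Mertk-/-, 226 in WT). The difference between this list and the OAS and IFIT genes has no test with 1 library per genotype. The lists were set by gene name, but with earlier results of these data known, so they are not an independent choice. Which interferon acted on a gene was not tested.

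**Figure D5:**
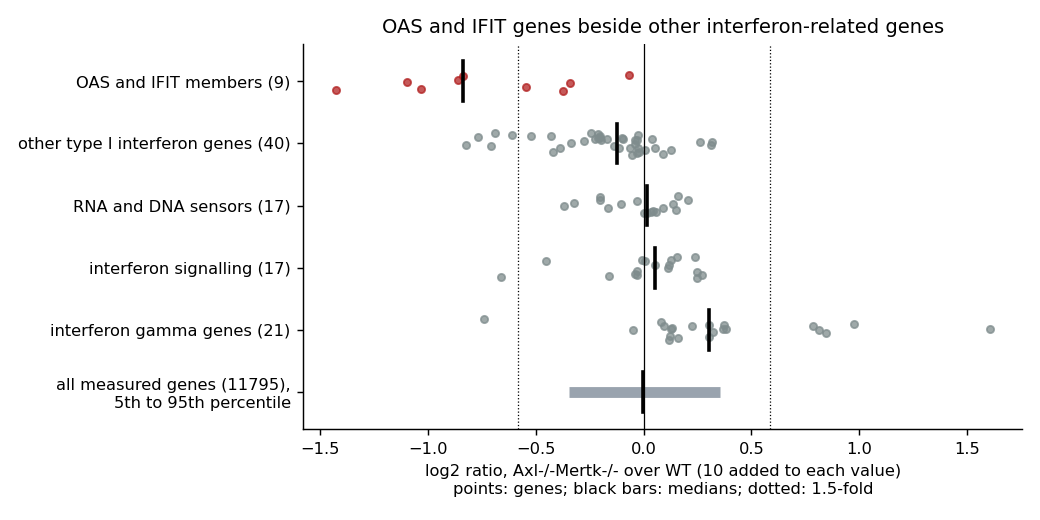
Log2 ratio, Axl-/-Mertk-/- over WT with 10 added to each value, for each measured gene (points) of the 9 OAS and IFIT genes and 4 other lists, with the median of each list (black bar) and the range of all measured genes from the 5th to the 95th percentile (-0.35 to 0.36); dotted lines mark 1.5-fold. The medians are -0.84 for the 9 genes, -0.13 for other type I interferon genes, 0.016 for sensors, 0.051 for signalling and 0.30 for interferon gamma genes.

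The libraries also differed in markers of cell identity, whose part in the OAS and IFIT result was not tested. Alveolar macrophage markers had a log2 ratio below 0 for 19 of 22 genes, where 51.2% of all measured genes lay below 0, with a median of -0.14. Their summed level was 1337740 normalised reads in Axl-/-Mertk-/- and 1514580 in WT, most of it from Chil3 (994755 and 1156230.0). Markers of monocytes and monocyte-derived macrophages lay above 0 for 24 of 29 genes, with a median of 0.23. Their sums were 586783 in Axl-/-Mertk-/- and 530170 in WT, led by Lyz2 (288183 and 245175). Lyz2 alone made up most of the difference between the sums, so they say little of the other genes. Of the 29 genes 4 were called higher, where 1.74% of all measured genes were, among them Ly6c2 (140.5 in Axl-/-Mertk-/-, 62.8 in WT) and Plac8 (296 and 144). Folr2 (111 and 226) was the 1 called lower, where 1.33% of all measured genes were. No gene of either list was at 0 in both libraries.

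Plasmacytoid dendritic cells, the classical source of type I interferon, were sought by their markers. The defining one, Siglech, had 16 reads in Axl-/-Mertk-/- and 14 in WT, and of 12 markers 6 were measured, 3 of them below 0 and 3 above; the sum of the list was 3396 normalised reads in Axl-/-Mertk-/- and 3210.2 in WT, led by Lair1, which is not restricted to these cells (1365 and 1254). Spib had 56.7 in Axl-/-Mertk-/- and 86.9 in WT, and Tcf4 had 776 and 702. Conventional dendritic cell markers had a median log2 ratio of 0.081 over 14 genes and sums of 12909 in Axl-/-Mertk-/- and 13619 in WT, led by Mgl2 (3664 and 4114), with Dpp4 (282 and 167) called higher and Itgae at 208 and 140.0.

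Markers of cells outside the gate were present too, and their part was likewise not tested. The joint list of endothelial and fibroblast markers had a median of 0.75 over 12 measured genes, with sums of 4944 in Axl-/-Mertk-/- and 4726 in WT. Of the 12 genes 7 were called higher and 0 lower, against 1.74% and 1.33% of all measured genes. The 7 genes called higher were vascular ones: Cldn5 (72.0 in Axl-/-Mertk-/-, 20.5 in WT), Ptprb (169 and 72.4), Adgrf5 (228 and 103), Kdr, Cdh5, Col4a1 and Tek. Vwf, the most abundant of the list (3053 and 3339), and the fibroblast collagen genes Col1a1 (120.4 and 149.6), Col1a2 (96.8 and 112) and Col3a1 (136 and 142) lay below 0. Neutrophil markers had a median of 0.36 over 9 genes and sums of 3598 in Axl-/-Mertk-/- and 3079 in WT, with Mmp8 at 950.2 and 999, S100a9 at 264 and 135, Ltf at 54.3 and 95.3, and Elane at 0 in both. Eosinophil markers had a median of -0.13 over 6 genes and sums of 23938 in Axl-/-Mertk-/- and 23978 in WT, nearly all of it Ear2, which alveolar macrophages can also express (22092 and 21670.1); Prg2 (20.1 and 24.1) and Ccr3 (50.8 and 54.3) were low, with Alox15 (724 and 1213) and Ear6 (68.5 and 113) lower in Axl-/-Mertk-/-. Lymphocyte markers had a median of 0.094 over 14 genes and sums of 3515 in Axl-/-Mertk-/- and 3297 in WT. Most of these sums came from Il7r alone (2082 and 1889), with Cd4 at 132 and 97.8 and Cd79b at 75.5 and 89.3. Epithelial markers had a median of -0.079 over 13 genes and sums of 11111 in Axl-/-Mertk-/- and 12546 in WT, with Cdh1, which alveolar macrophages also express, at 5916 and 6692, Hopx at 389.5 and 268 and Sftpb at 85.0 and 56.7.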

How the data were processed

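Polyadenylated RNA of lung macrophages was sequenced from libraries that mark strand, 1 per genotype, per the labels' protocols. The values deposited by the authors are normalised counts (a signal): each gene's reads over 1 size factor per library. The submitters' processing notes name TopHat2, DESeq2 and GRCm38; versions, counting program, strand setting and treatment of multi-mapping reads are unstated there. Whole reads were recovered by dividing each column by its smallest non-zero value (100% whole within a relative tolerance of 1e-06). Size factors were 0.847 in Axl-/-Mertk-/- and 0.829 in WT. The table has 38293 genes, 1585 without a symbol, and 0 columns of other samples.

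The labels' genotype set the groups. With no replicates there are no residual degrees of freedom for a quasi-likelihood fit in edgeR, so a rule of size was used: log2 of the ratio after adding 10, a mean of at least 20, and a call at 1.5-fold. Intervals are exact 95% ones (Clopper-Pearson for ratios and shares, conditional for quotients of ratios, Poisson for levels), and 3 reads are the floor for a count of 0. Intervals and floors cover counting error only. Reads that carry no molecular identifier may repeat one molecule, which the intervals do not allow for. The members and lists were chosen with earlier results of these data known. From each interferon-related list the rule named up to 4 genes of mean 50 or more whose log2 ratio lay farthest from 0, and from each marker list the most abundant gene and up to 2 such genes; all genes past 1.5-fold in the interferon-related and the endothelial and fibroblast lists, and Folr2, Elane, Prg2, Ccr3, Col1a1, Col1a2, Col3a1, Siglecf, Itgax, Marco, Siglech, Ifnar1, Stat2, Irf9, Ifnb1, Ifng, Ifna16 and Ch25h were named in addition; some genes that the rule names are not reported here.

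Positions and exon lengths came from GENCODE M21 for GRCm38 (99.2% of measured genes found). Near copies were searched with BLAST+ 2.17.0 (at least 90% identity over at least 100 bases). The computation was tested on simulated data and used Python 3.11.15, numpy 2.4.6, pandas 2.3.3, SciPy 1.17.1, matplotlib 3.10.9 and edgeR 4.0.16 (TMM factors only). Alternatives were other pseudocounts, minimum means, scalings, call rules, summed copies and motif variants.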

Additional observations from a re-analysis of the deposited data

How the results depend on the processing

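No paired analysis was possible because each genotype has 1 library, and no library could be left out. The log2 ratios of the 9 genes stayed below 0 and moved by less than their counting intervals in each of the 7 or 8 values computed per gene (Ifit3 falls under the minimum mean of 100, and summed copies concern Oas1a with Oas1g and Ifit3 with Ifit3b); Oasl1 ranged from -1.48 to -1.24 and Ifit3, the lowest in reads, from -0.99 to -0.50. Scaling by median-of-ratios factors, TMM or total reads left 5 of 9 genes lower, with 150 to 160 of all measured genes lower against 157 as reported. The pseudocount and the minimum mean moved more. With 1 added in place of 10, 247 of all measured genes were lower. With 50 added, 58 were, with 4 of the 9 genes (not Ifit3), 3 other type I interferon genes lower and a median of -0.50 over the 9 genes. Without a minimum mean 366 genes were lower, and with a minimum of 100 there were 65, with a median of -0.70 over the 8 genes left. At 2-fold 3 of the 9 genes, 0 other type I interferon genes and 32 of all measured genes were lower, and 1 interferon gamma gene was higher. With the counting interval as the rule, 8 of the 9 genes, 16 other type I interferon genes and 1344 of all genes were lower, and 14 interferon gamma genes were higher. The share of all measured genes called higher by the 2-fold rule or by the counting interval is not given. The counts of interferon gamma genes called higher by these rules therefore cannot be set against it. The pooled reads of the 9 genes gave a log2 ratio of -0.70, nearer 0 than the median of -0.84. The motif was in 4 of 8 promoters when followed by CT, and its core AANNGAAA, chosen after seeing the data, in 6.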
